A study of Mus musculus with 29 samples.

Results

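Nfkb1, Nfkbia and Tnfaip3 encode proteins that restrain NF-kB, the transcription factor that drives much of the macrophage response to bacteria, and 2 lipopolysaccharide (LPS) times were profiled at their loci. All peaks and chromatin-state segments that overlapped chr3:135240000-135370000 (Nfkb1), chr12:56580000-56620000 (Nfkbia) and chr10:18700000-18800000 (Tnfaip3), in mm9, were taken. These windows held 424 of the 1199111 peak lines on chromosomes 1 to 19 and X, of which 380 were histone peaks (173 at Nfkb1, 56 at Nfkbia and 151 at Tnfaip3). The other 44 lines were PU.1 summits in 39 peak intervals. The windows also held 805 of 2070063 state segments.

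The samples were chromatin immunoprecipitations sequenced from RAW 264.7, a mouse macrophage-like cell line transformed by Abelson murine leukemia virus. The groups were untreated cells, cells with LPS at 100 ng/ml for 1 h or 4 h, cells with flavopiridol for 1 h, and cells with flavopiridol for 1 h followed by LPS for 4 h. All 7 histone marks were mapped in the first 3 groups, H3K4me1 and H3K36me2 in all 5, and the transcription factor PU.1 in untreated cells alone. There was 1 library per mark and group, so no difference here has a replicate check, no test was possible, and values are set beside those over the whole genome. The line is a transformed macrophage model, and the only lineage factor that was mapped, PU.1, had 99565 peak intervals on these chromosomes.

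NF-kB dimers are held in the cytoplasm by inhibitory proteins until signals from receptors such as Toll-like receptor 4, the LPS sensor, lead to the inhibitors' destruction. Nfkb1 encodes p105, which inhibits NF-kB as a whole protein and yields the DNA-binding subunit p50. Nfkbia encodes IkBa, the inhibitor that binds NF-kB dimers and takes them back out of the nucleus, and Tnfaip3 encodes A20, a ubiquitin-editing enzyme that shuts off signalling upstream of the IkB kinase. All of them are textbook NF-kB targets, which closes a negative feedback loop. Of the marks, H3K4me3 lies at promoters, H3K4me1 at enhancers, H3K27ac at active forms of both, H3K79me2 and H3K36me3 along transcribed bodies and H3K27me3 over repressed chromatin. H3K36me2 lies over wide genic and intergenic stretches. Flavopiridol inhibits CDK9, the kinase that releases paused RNA polymerase II.

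RefSeq's promoter table (GRCm38.p6) had an entry for Nfkbia and Tnfaip3. The 250 bases before the annotated start are shown because NF-kB is known to act on these promoters, with matches to the kB consensus in capitals.
Nfkbia: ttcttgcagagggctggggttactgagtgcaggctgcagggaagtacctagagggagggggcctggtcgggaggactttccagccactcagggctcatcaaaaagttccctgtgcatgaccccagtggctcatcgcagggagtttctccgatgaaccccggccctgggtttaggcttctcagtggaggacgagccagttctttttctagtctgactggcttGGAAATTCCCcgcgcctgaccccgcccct
Tnfaip3: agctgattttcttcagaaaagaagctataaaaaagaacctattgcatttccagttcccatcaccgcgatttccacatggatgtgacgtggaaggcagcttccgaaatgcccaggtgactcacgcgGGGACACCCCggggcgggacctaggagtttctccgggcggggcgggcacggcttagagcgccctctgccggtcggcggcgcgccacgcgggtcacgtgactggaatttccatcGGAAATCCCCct
Both strands were searched. The Nfkbia promoter had 1 match, on the reverse strand, beginning 29 bases before the start. The Tnfaip3 promoter had 2, beginning 125 bases before the start on the forward strand and 12 bases before it on the reverse strand. Of 32851 promoters of this length in the table, 3.90% held a match. The core of the PU.1 motif, GAGGAA, was absent from both and present in 23.3% of the promoters, so the motifs did not overlap. A further Tnfaip3 start in the table held neither motif. A match is a string of letters and was not measured as a binding site here, and these sequences were not laid onto the mm9 peaks.

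By 4 h of LPS, with all peaks of the lists counted, H3K27ac had added more covered length than any other of the 7 marks at each gene. At Nfkb1 it covered 14.7 kb of the 130 kb window without LPS, 27.4 kb after 1 h and 54.6 kb after 4 h. At Tnfaip3 it covered 23.3, 47.5 and 57.5 kb of the 100 kb window. At Nfkbia it covered 8.83, 8.53 and 16.1 kb of the 40 kb window. Nfkb1 and Tnfaip3 were thus already above their untreated length at 1 h, by 1.86 and 2.04 times, whereas Nfkbia was at 0.966 times and rose above it only at 4 h, to 1.83 times. Over the genome the H3K27ac lists moved far less, with 0.874 times the untreated length at 1 h and 1.09 times at 4 h. In bulk cells, a mark in more cells and more of a mark per cell cannot be told apart.

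**Figure D1:**
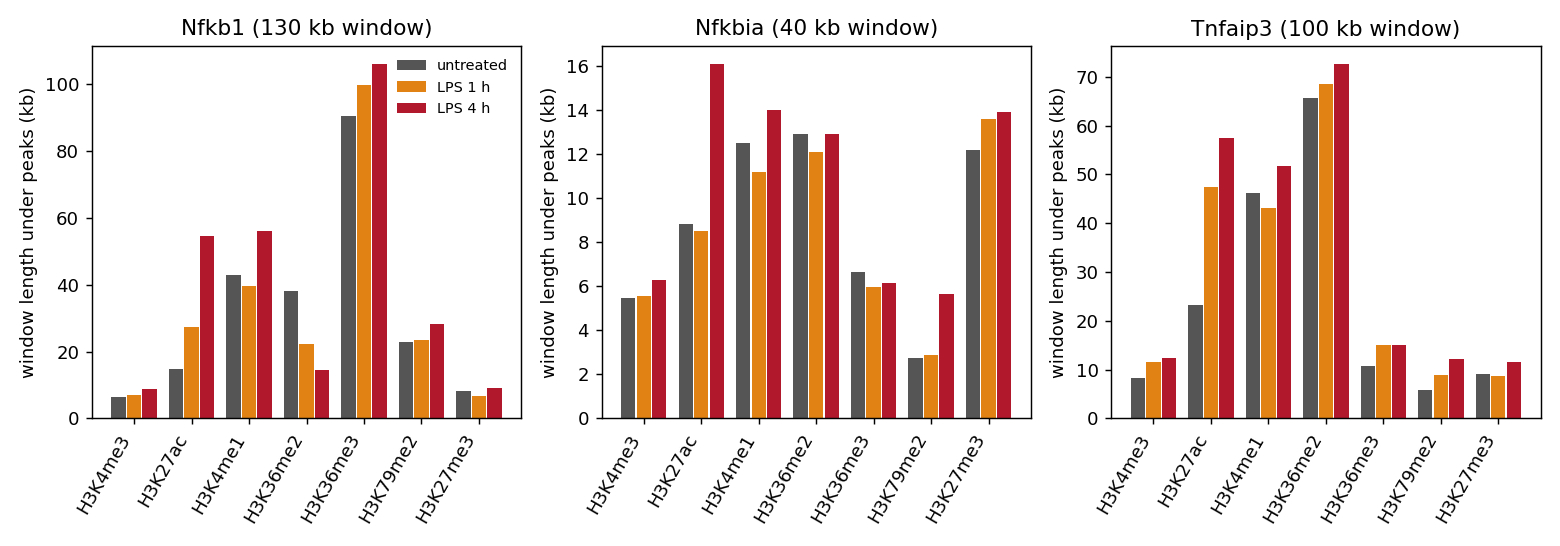
Window length under peaks (kb) of each of 7 histone marks at Nfkb1, Nfkbia and Tnfaip3, with 1 bar per library (untreated, LPS 1 h, LPS 4 h) and no error bars since each group has 1 library. H3K27ac bars lengthen at each gene by 4 h, and H3K36me2 shortens at Nfkb1, from 38.1 to 14.6 kb.

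The other marks split the genes further. Of the 7 marks, 6 covered more of the Nfkb1 window at 4 h than in untreated cells, 5 more of the Nfkbia window and 7 more of the Tnfaip3 window. Over the genome 6 of the 7 lists were also longer at 4 h, so these counts were close to the background. H3K79me2, which marks the early transcribed part of genes, covered 2.74, 2.89 and 5.63 kb at Nfkbia over the time course, 5.86, 8.91 and 12.2 kb at Tnfaip3 and 22.9, 23.5 and 28.2 kb at Nfkb1. Its ratio at 4 h was 2.06 at Nfkbia and 2.07 at Tnfaip3, against 1.09 over the genome. H3K36me3, left behind by elongating polymerase, covered 90.4, 99.7 and 106 kb at Nfkb1 and 10.7, 15.0 and 15.1 kb at Tnfaip3. At Nfkbia it covered 6.64 kb in untreated cells and a little less after LPS, 5.95 and 6.13 kb. H3K4me3 grew at Tnfaip3, from 8.28 kb to 11.6 and 12.3 kb, and at Nfkb1, from 6.39 kb to 7.12 and 8.79 kb, and least at Nfkbia, from 5.45 kb to 5.54 and 6.27 kb. The H3K79me2 ratio at Nfkb1 at 1 h, 1.03, was below the 1.06 over the genome. With peaks at a deposited −log10 q of at least 5, H3K36me3 covered 90.4, 86.1 and 106 kb at Nfkb1 and 6.64, 5.95 and 0 kb at Nfkbia. H3K4me1 was a little shorter at 1 h and longer at 4 h in each window, with 42.8, 39.6 and 56.1 kb at Nfkb1, 12.5, 11.2 and 14.0 kb at Nfkbia and 46.1, 43.2 and 51.8 kb at Tnfaip3. That order depended on weak peaks. With that same q limit H3K4me1 covered 38.4, 7.31 and 34.6 kb at Nfkb1, 6.39, 2.28 and 1.92 kb at Nfkbia and 1.05, 14.2 and 10.0 kb at Tnfaip3.

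A peak was called gained when no peak of the untreated list overlapped it by 1 bp or more, and lost in the reverse case. Over the genome 13.2% of the peaks of the 7 marks were gained at 1 h and 20.1% at 4 h. In the 3 windows 6 of 88 peaks (6.82%) were gained at 1 h and 18 of 91 (19.8%) at 4 h, so the share at 4 h was close to the background. All 6 at 1 h lay at Nfkb1, with 0 of 13 at Nfkbia and 0 of 35 at Tnfaip3. That split depended on the peaks and the rule used. With peaks at a −log10 q of at least 5 the counts gained at 1 h were 3 at Nfkb1, 0 at Nfkbia and 10 at Tnfaip3. At 4 h the counts were 12 of 43 at Nfkb1, 3 of 16 at Nfkbia and 3 of 32 at Tnfaip3. Lost peaks numbered 11 of 102 at 1 h and 9 of 102 at 4 h, beside 11.7% and 8.75% over the genome. When a peak had to be covered over at least 50% of its length to count as shared, 14 peaks at 1 h (7 at Nfkb1, 1 at Nfkbia and 6 at Tnfaip3) and 36 at 4 h were gained. For H3K27ac, gained peaks held 30.5 of the 42.0 kb newly covered at Nfkb1 at 4 h (72.6%), 1.78 of 7.30 kb at Nfkbia (24.4%) and 1.81 of 34.3 kb at Tnfaip3 (5.28%). The rest lay in peaks that overlapped an untreated peak.

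At Nfkb1 the growth of H3K27ac came from long stretches on the gene body side of the promoter. No mm9 gene annotation was used here, and the body side is read from H3K36me3 and H3K79me2, which in untreated cells lay mostly at lower coordinates than the centre of the widest H3K4me3 peak at each gene. Of the window's H3K27ac peaks 4 of 8 were gained at 1 h and 6 of 12 at 4 h. Over all 3 windows the counts were 4 of 17 and 8 of 22, against 9.05% and 21.3% of the genome's H3K27ac peaks. Of the 7 untreated H3K27ac peaks at Nfkb1, 3 were lost at 1 h and 1 at 4 h. For the 7 marks pooled, 11.7% and 8.75% were lost over the genome, and a share for H3K27ac alone is not given here. The widest lost at 1 h, chr3:135259240-135260836 (1597 bp, −log10 q of 17.0), was covered to 59.3% at 4 h. H3K27ac left 3.74 kb at 1 h and 2.11 kb at 4 h, beside 16.4 and 42.0 kb newly covered. The widest gain was chr3:135327373-135336164 at 1 h, 8792 bp wide, which at 4 h lay in chr3:135327162-135341866, 14705 bp wide and the widest H3K27ac peak of the window. No untreated H3K27ac peak overlapped either. A 3029 bp peak gained at 1 h, chr3:135301906-135304934, lay at 4 h inside a peak of 9925 bp, chr3:135298069-135307993. Further gains at 4 h were chr3:135321128-135324134 (3007 bp) and chr3:135311753-135313028 (1276 bp), both under H3K36me3 over their whole length in each group. A gain of 696 bp at 1 h and 1089 bp at 4 h, chr3:135362048-135363136, lay on the other side of the promoter, beyond H3K36me3.

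These stretches were partly marked by H3K4me1 before LPS. H3K4me1 of untreated cells covered 28.8% of the 8792 bp stretch, and H3K4me1 at 4 h covered 55.7% of it. In the 9925 bp stretch the shares were 14.9% and 57.4%. Over all 42.0 kb of the Nfkb1 window that carried H3K27ac at 4 h but not before, 49.1% was under H3K4me1 in untreated cells and 75.3% at 4 h, and 70.5% was under H3K36me3 before LPS. Gained H3K4me1 peaks numbered 3 of 15 at Nfkb1 at 4 h and 7 of 33 in the 3 windows, against 15.0% over the genome. The widest, chr3:135298058-135300359 (2302 bp), lay in the 9925 bp H3K27ac stretch. Gained H3K79me2 peaks at 4 h lay at Nfkb1 alone, 3 of its 4, or 3 of 6 over the windows, against 19.3% over the genome. The pair of at least 1 kb were chr3:135319418-135320782 (1365 bp) and chr3:135322412-135324482 (2071 bp).

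The promoter peak of Nfkb1 widened toward the gene body. The H3K4me3 peak there was 3184 bp wide in untreated cells (chr3:135352017-135355200), 4178 bp at 1 h (chr3:135350986-135355163) and 6649 bp at 4 h (chr3:135348424-135355072), so its outer edge moved by far less than its inner edge. The H3K27ac peak at the promoter was 6366, 9200 and 12308 bp wide. H3K36me3 lay in 5 peaks before LPS, in 4 at 1 h and in 2 at 4 h. Its widest grew from 31102 bp to 86140 and 86594 bp as neighbouring peaks joined, and at 4 h its second peak, chr3:135334480-135353401, ran up to the promoter. A 2084 bp H3K36me3 peak gained at 1 h, chr3:135350761-135352844, lay beside the promoter, where untreated cells had none of that mark. It was 1 of 2 gained among 6 H3K36me3 peaks in the windows, against 11.8% over the genome. The 2084 bp peak was weak, with a deposited −log10 q of 1.38. With peaks at a −log10 q of at least 5, the 1 h list held only 1 H3K36me3 peak at Nfkb1, of 86140 bp. H3K79me2 covered the first part of the body in 1 wide peak of 22890, 23543 and 24272 bp.

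**Figure D2:**
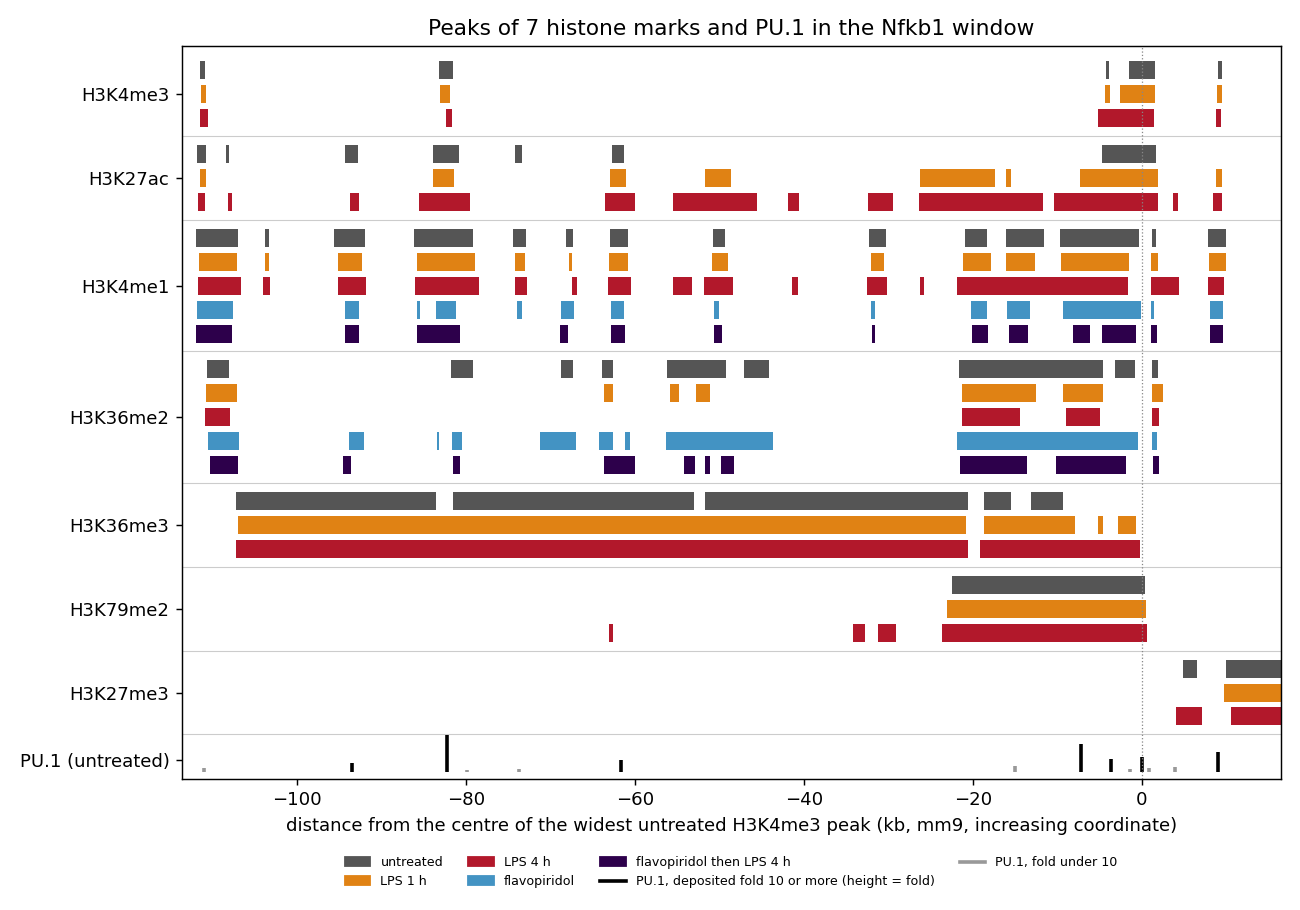
Peaks in the 130 kb Nfkb1 window, 1 row per library, with the distance in kb from the centre of the widest untreated H3K4me3 peak on the x axis and PU.1 peaks of untreated cells as vertical lines whose height is the deposited fold enrichment. H3K27ac fills in left of the promoter after LPS (14.7 to 54.6 kb), while H3K36me2 recedes (38.1 to 14.6 kb).

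H3K36me2 went the other way at Nfkb1. It covered 38.1 kb in untreated cells, 22.1 kb at 1 h and 14.6 kb at 4 h, or 0.383 times the untreated length, while over the genome its covered length was 1.24 times as long. The number of H3K36me2 peaks in the window was 9, 7 and 4. Of the 9 untreated peaks 4 had no counterpart at 1 h and 6 had none at 4 h. Over the 3 windows 5 of 21 were lost at 1 h and 7 of 21 at 4 h, against 8.68% and 6.01% over the genome. The widest lost peak was chr3:135297403-135304392 (6990 bp), of which 38.4% was still covered at 1 h. The other losses of 1 kb or more at 4 h were chr3:135271854-135274419, chr3:135284845-135286231, chr3:135289684-135291056, chr3:135306513-135309522 and chr3:135350409-135352838. Of the 24.0 kb that no longer carried H3K36me2 at 4 h, 75.4% was under H3K36me3 before LPS and 100% after it, and 76.3% was under H3K27ac at 4 h against 15.2% before. At Nfkbia H3K36me2 covered 12.9, 12.1 and 12.9 kb and at Tnfaip3 65.7, 68.5 and 72.6 kb, so neither window showed a like drop. The result rests on weak peaks. With only peaks at a −log10 q of at least 5, the untreated and 1 h lists had no H3K36me2 peak at Nfkb1 and the 4 h list had 3, over 10.6 kb, and the lists covered 6.07, 68.5 and 72.6 kb at Tnfaip3. The share of all H3K36me2 peaks that reach that value also differed between the lists, from 9.02% without LPS to 22.6% at 1 h and 32.5% at 4 h, and its part in the result was not tested.

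At Tnfaip3 a row of H3K27ac peaks present in untreated cells was wider after LPS. The promoter peak was 8726 bp wide in untreated cells (chr10:18727185-18735910), 13632 bp at 1 h and 21727 bp at 4 h (chr10:18719006-18740732). On the far side from the gene body, the peak at chr10:18780868-18785036 was 4169 bp wide and its successors 8530 and 9329 bp. The peaks at chr10:18762550-18764715 (2166 bp) and chr10:18766786-18767694 (909 bp) had joined into 1 of 6437 bp at 1 h, and 7417 bp at 4 h. The peak at chr10:18772539-18774783 was 2245, 3279 and 3634 bp wide. That at chr10:18714942-18716884, beyond the H3K36me3 of the gene body, changed least, with 1943, 1879 and 2028 bp. The peak at chr10:18753064-18754338 was 1275 bp wide, lay in a 9608 bp peak at 1 h and in a 4495 bp peak at 4 h, so it was widest at the early time. At 4 h 1 H3K27ac peak of 8 was gained, chr10:18745611-18747420 (1810 bp), which had been covered to 99.2% by the 9608 bp peak of 1 h. Of the 34.3 kb newly under H3K27ac at 4 h, 58.4% carried H3K4me1 and 58.2% carried H3K36me2 in untreated cells, while 22.2% carried H3K36me3.

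**Figure D3:**
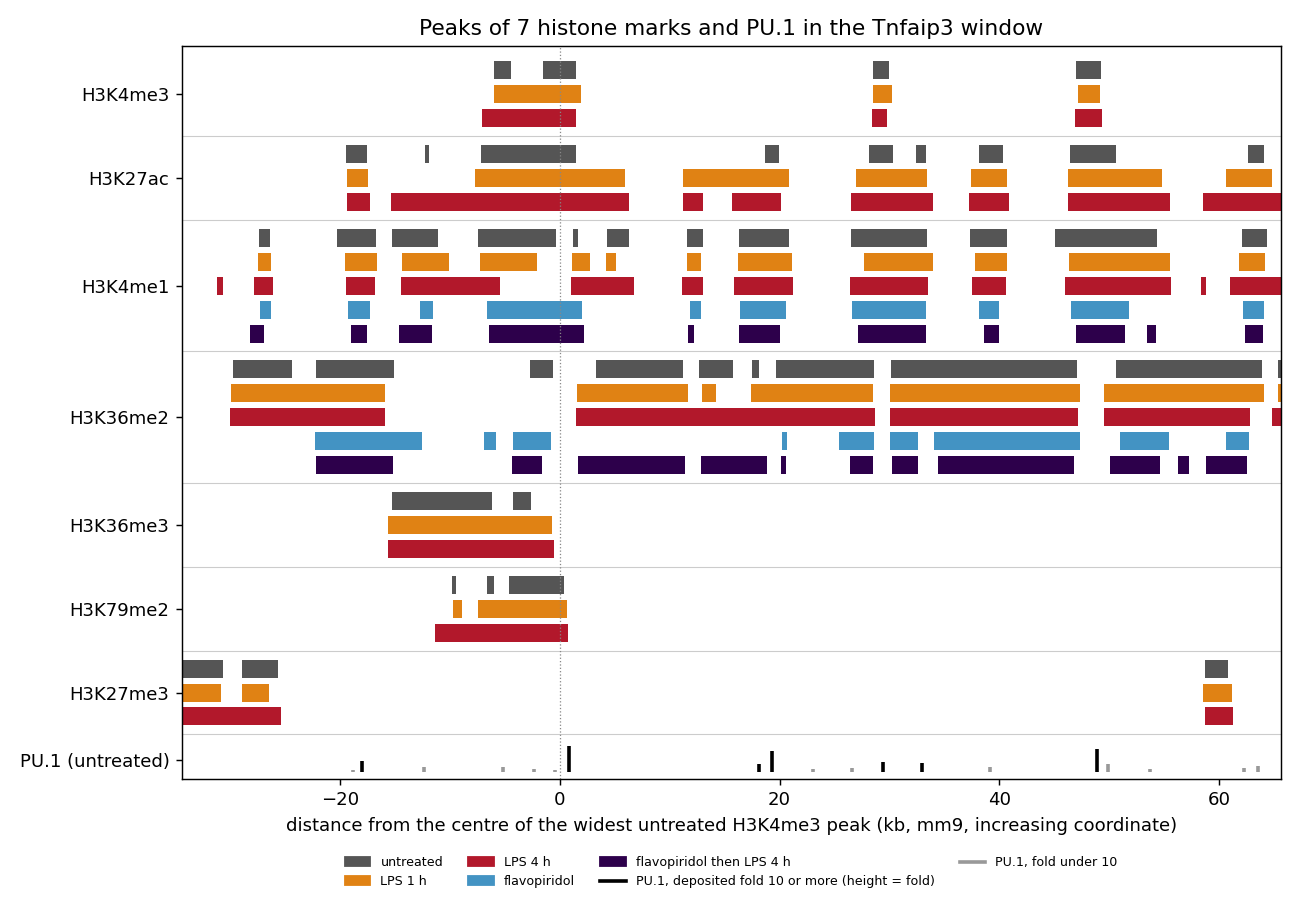
Peaks in the 100 kb Tnfaip3 window, drawn as for Nfkb1. H3K27ac peaks on both sides of the promoter widen after LPS (23.3 to 57.5 kb). H3K36me2 covers less of the window with flavopiridol (40.2 and 52.2 kb) than without it (65.7, 68.5 and 72.6 kb).

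At the promoter and body of Tnfaip3 the marks of transcription lengthened by 1 h. A pair of untreated H3K4me3 peaks of 1553 and 3010 bp became 1 peak of 7897 bp at 1 h (chr10:18728445-18736341) and 8487 bp at 4 h. The untreated H3K36me3 peaks of 9082 and 1595 bp became 1 of 14969 bp at 1 h and 15102 bp at 4 h. The widest H3K79me2 peak was 4969, 8104 and 12151 bp wide. The H3K36me2 peak next to the promoter, inside the H3K79me2 peak, chr10:18731697-18733750 (2054 bp), was lost at 1 h and at 4 h. In the same stretch the H3K4me3 share was 41.8% before LPS and 100% at both times, the H3K36me3 share was 1.75%, 97.9% and 100%, and the H3K4me1 share was 100%, 29.8% and 0%. The like stretch of Nfkb1, chr3:135350409-135352838 (2430 bp), also lost its H3K36me2 peak at both times. There the H3K4me3 share was 33.8%, 76.3% and 100%, the H3K36me3 share 0%, 85.5% and 100%, and the H3K4me1 share 100%, 68.1% and 63.1%. The lost H3K36me2 peaks were weak, with a deposited −log10 q of 2.78 at Tnfaip3 and 1.40 at Nfkb1. So was the H3K36me3 peak in the Nfkb1 stretch at 1 h, at 1.38. The upstream H3K4me3 peaks of Tnfaip3, 1437 bp at chr10:18762919-18764355 and 2280 bp at chr10:18781394-18783673, changed little, with 1690 and 2059 bp at 1 h and 1337 and 2446 bp at 4 h.

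Nfkbia had wide H3K4me3 and H3K27ac peaks before LPS, and they changed mainly at 4 h. Its H3K4me3 peak was 5113 bp wide in untreated cells (chr12:56589873-56594985), 5544 bp at 1 h and 6267 bp at 4 h. The H3K27ac peak over it was 8274 bp (chr12:56587656-56595929), 7763 bp and 14329 bp (chr12:56585866-56600194). At 4 h it reached a small peak of 552 bp at chr12:56599666-56600217, which lay apart in untreated cells. At 4 h 1 of 2 H3K27ac peaks was gained, chr12:56581437-56583215 (1779 bp), against 21.3% of H3K27ac peaks over the genome. This gained peak was weak, with a deposited −log10 q of 1.37. It was covered to 93.7% by H3K4me1 and to 100% by H3K36me2 before LPS. The H3K79me2 peak was 2736, 2886 and 5633 bp wide, and the added length at 4 h lay on the side away from H3K36me3, past the promoter (chr12:56590050-56595682). A 338 bp H3K4me3 peak at chr12:56599839-56600176 was absent at both LPS times. H3K27me3, the repressive mark, lay only on the higher-coordinate side, beginning at 56601893 in untreated cells, and covered 12.2, 13.6 and 13.9 kb.

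**Figure D4:**
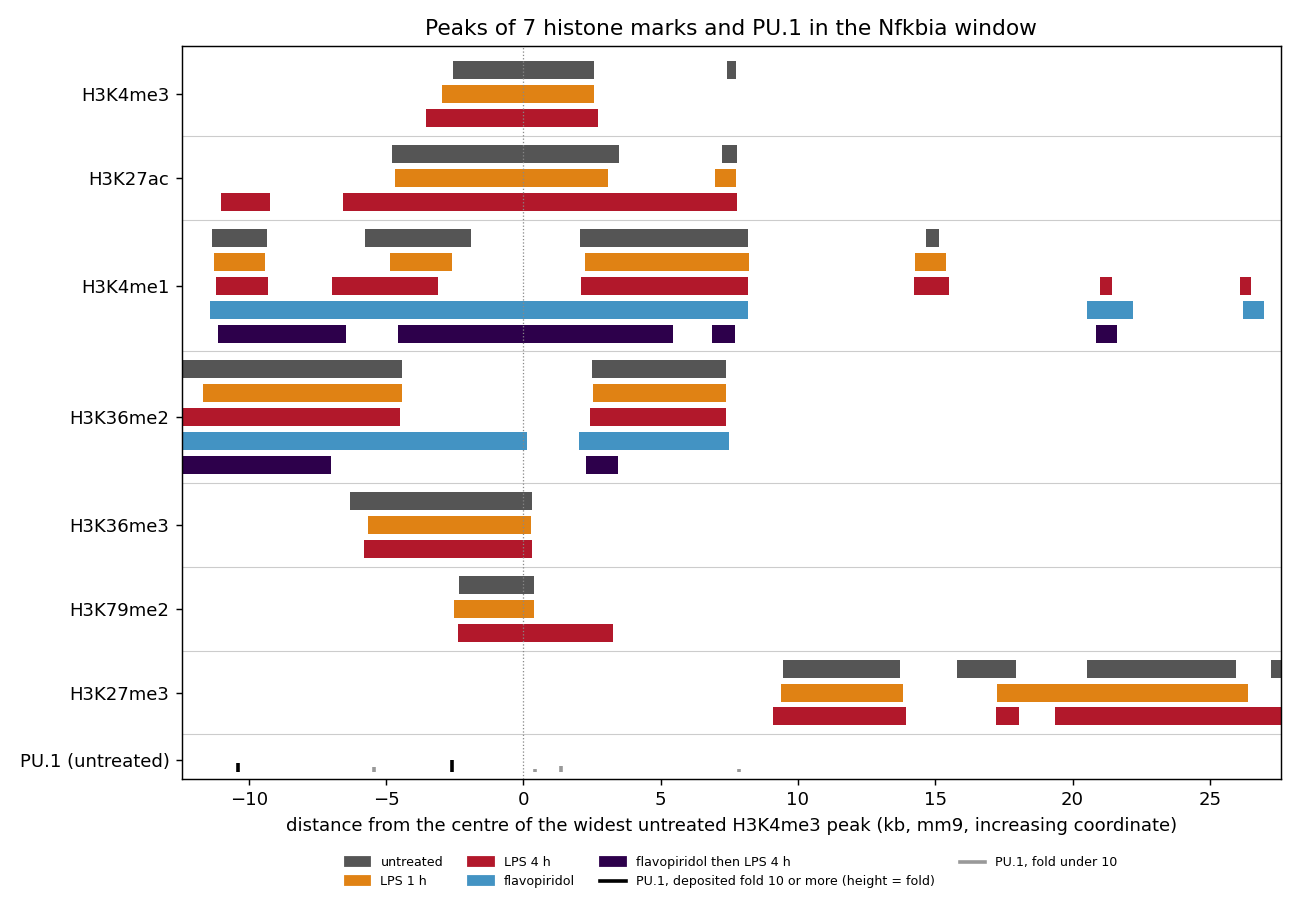
Peaks in the 40 kb Nfkbia window, drawn as for Nfkb1. The H3K27ac peak over the promoter is 8274, 7763 and 14329 bp wide over the time course, and H3K4me1 crosses the promoter in both groups with flavopiridol.

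PU.1, the factor that sets the macrophage lineage and opens its enhancers, was dense at these loci in untreated cells. The windows had 14 intervals at Nfkb1, 6 at Nfkbia and 19 at Tnfaip3, or 10.8 per 100 kb at Nfkb1, 15.0 at Nfkbia and, in its 100 kb, the 19 of Tnfaip3, against 3.77 over the genome. Their median deposited fold enrichment was 6.83, near the 6.33 over the genome, and 16 of 39 reached 10 against 30.5% over the genome. The strongest was at Nfkb1, chr3:135270946-135271696, with a fold of 48.1, lying 82.3 kb from the centre of the promoter's H3K4me3 peak on the body side. It lay under H3K4me3, H3K27ac and H3K4me1 in every group mapped. The next at Nfkb1 were chr3:135346087-135347127 (fold 36.1), which lay under H3K4me1 before LPS but under H3K27ac only at 1 h and 4 h, and chr3:135362101-135363050 (fold 25.2), which had H3K4me3 and H3K4me1 before LPS and H3K27ac after it. At Tnfaip3 the strongest were chr10:18734728-18735674 (fold 33.8) at the promoter, chr10:18782286-18783759 (fold 29.9) 48.9 kb away and chr10:18753283-18754078 (fold 26.5) 19.3 kb away, each under H3K27ac and H3K4me1 in each group mapped. At Nfkbia they were chr12:56589445-56590382 (fold 14.9), chr12:56581849-56582296 (fold 11.2) and chr12:56593572-56594221 (fold 6.88). The chr12:56581849-56582296 peak is the one on which the weak 1779 bp H3K27ac peak of 4 h (−log10 q of 1.37) was gained.

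More PU.1 intervals lay under H3K27ac at 4 h than before LPS. In untreated cells 27 of 39 overlapped an H3K27ac peak, at 1 h 29 and at 4 h 37. The shares over all PU.1 intervals were 45.2%, 40.4% and 45.8%. By gene the counts were 9, 9 and 13 of 14 at Nfkb1, 4, 4 and 6 of 6 at Nfkbia and 14, 16 and 18 of 19 at Tnfaip3. These are net counts. The intervals chr3:135259854-135260516 (fold 11.4), chr3:135279762-135280050 and chr10:18721793-18722220 were under H3K27ac before LPS and not at 1 h. Of these, chr3:135279762-135280050 was not under it at 4 h either. Of the 16 intervals at a fold of at least 10, 12 were under H3K27ac before LPS, 14 at 1 h and all 16 at 4 h. The 16 include chr12:56581849-56582296, which lay under the weak 1779 bp H3K27ac peak. With all peaks counted, H3K4me1 was there beforehand, with 33 of 39 in untreated cells against 69.6% over the genome, and 30 at 1 h and 29 at 4 h, against 67.5% and 70.3%. With flavopiridol 34 were under H3K4me1, and with flavopiridol then LPS 31, against 65.6% and 58.4%. These H3K4me1 counts rest on weak peaks. With histone peaks at a −log10 q of at least 5 the share was far lower in each group, as given below. H3K36me3, the body mark, was under 8, 13 and 15 over the time course, against 13.7%, 13.5% and 13.6%, and the added ones were at Nfkb1 (4, 7 and 9) and Tnfaip3 (1, 3 and 3). H3K36me2 was under 18 of 39 in untreated cells and 15 of 39 at 4 h, against 31.4% and 39.8% over the genome. H3K27me3 was under 0 of 39 in untreated cells and at 1 h and under 1 at 4 h, against 10.8%, 10.3% and 11.8%. PU.1 was not mapped after LPS, so where it was bound then was not measured.

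In the groups with flavopiridol, H3K4me1 was shorter at Nfkb1 and Tnfaip3 and longer at Nfkbia than in the groups without it. The comparisons share the untreated and the LPS 4 h lists. The flavopiridol samples were numbered in a separate block from the other H3K4me1 and H3K36me2 samples, which the labels do not explain. No input sample had flavopiridol. Flavopiridol and any difference between these blocks cannot be told apart, here and in the H3K36me2 comparisons below. At Nfkb1 H3K4me1 covered 42.8 kb in untreated cells and 56.1 kb with LPS for 4 h, but 29.1 kb with flavopiridol alone and 27.5 kb with flavopiridol then LPS. At Tnfaip3 the values were 46.1, 51.8, 33.7 and 33.1 kb. So at both genes the groups with flavopiridol were lower with or without LPS, as over the genome, where the lists covered 192, 200, 144 and 117 Mb. Nfkbia went against this, with 12.5, 14.0, 22.0 and 16.3 kb. Its single peak with flavopiridol, chr12:56581015-56600617, was 19603 bp wide and crossed the promoter, where untreated cells had separate peaks of 3882 and 6111 bp on either side. With flavopiridol then LPS a 10018 bp peak, chr12:56587868-56597885, crossed it. With flavopiridol, H3K4me1 also crossed the Tnfaip3 promoter (8603 bp, chr10:18727789-18736391), and did so after LPS as well (8662 bp). With LPS alone for 4 h, H3K4me1 there ended at 18728953 and began again at 18735449, and untreated cells had peaks of 7092 and 442 bp on either side of a small gap. None of the H3K4me1 peaks at Nfkbia with flavopiridol reached a −log10 q of 5, and with flavopiridol then LPS none did in any window. The 8603 bp peak at Tnfaip3 with flavopiridol was also weak, at 2.16. The named stretches inside the promoters of Tnfaip3 and Nfkb1 were under H3K4me1 to 100% with flavopiridol and with flavopiridol then LPS.

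**Figure D5:**
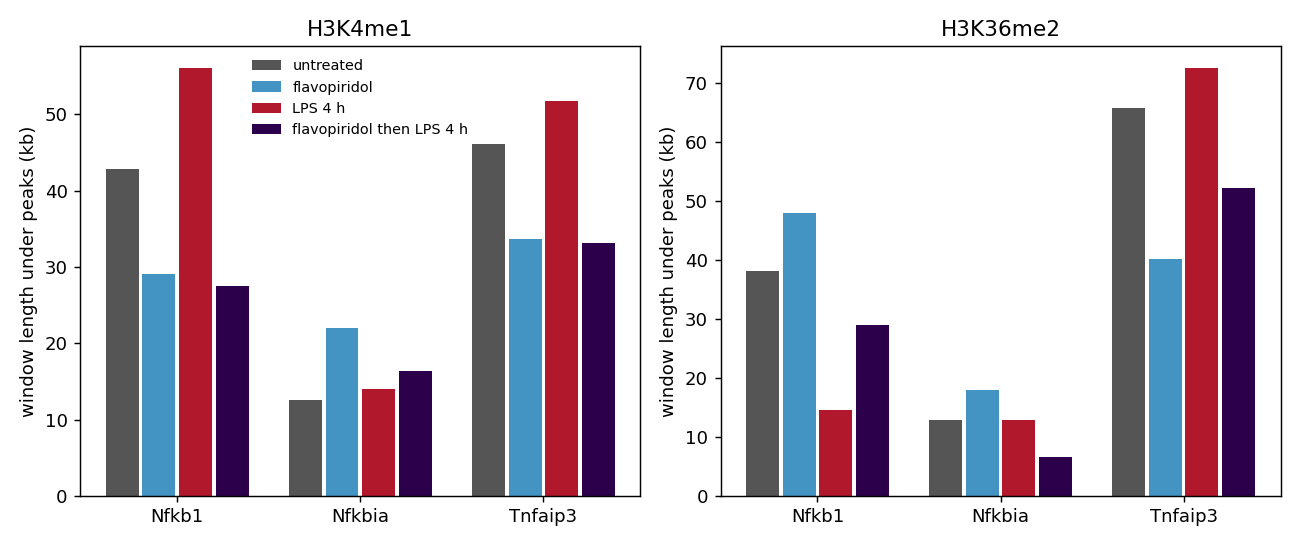
Window length under H3K4me1 and H3K36me2 peaks (kb) at each gene without and with flavopiridol, 1 library per bar and no error bars. H3K4me1 bars with flavopiridol are lower at Nfkb1 and Tnfaip3 and higher at Nfkbia, and H3K36me2 at Nfkb1 is longest with flavopiridol alone (48.0 kb).

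Of the 7 H3K4me1 peaks that were gained at 4 h of LPS, 6 had no counterpart with flavopiridol then LPS (3 of 3 at Nfkb1, 1 of 2 at Nfkbia and 2 of 2 at Tnfaip3), against 74.9% of such peaks over the genome. Of all 33 peaks at 4 h in the windows 10 had no counterpart with flavopiridol then LPS, 6 of 15 at Nfkb1, 2 of 6 at Nfkbia and 2 of 12 at Tnfaip3, against 33.9% over the genome. They included chr3:135298058-135300359, the 2302 bp peak gained at 4 h in the Nfkb1 body. Flavopiridol alone left 3 of 30 untreated peaks without a counterpart, against 20.9% over the genome, among them chr10:18738734-18740731 (1998 bp) at Tnfaip3. It added 2 of 27, against 14.2%, both at Nfkbia beyond the gene, chr12:56612955-56614638 (1684 bp) and a 754 bp peak.

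H3K36me2 followed flavopiridol differently at each gene. At Nfkb1 it covered 38.1 kb untreated and 14.6 kb with LPS for 4 h, but 48.0 kb with flavopiridol and 28.9 kb with flavopiridol then LPS. The lists with LPS for 4 h were thus shorter than their partners, with a difference of −23.5 kb without flavopiridol and −19.1 kb with it. Of the 24.0 kb at Nfkb1 that lost H3K36me2 with LPS, 93.9% carried it with flavopiridol alone and 35.1% with flavopiridol then LPS, against 47.6% and 24.2% of such bases over the genome. At Tnfaip3 the 4 values were 65.7, 72.6, 40.2 and 52.2 kb, so that flavopiridol lists were shorter. At Nfkbia they were 12918, 12862, 18024 and 6598 bp. Over the genome they were 281, 349, 305 and 230 Mb.

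Of the 23 H3K36me2 peaks with flavopiridol then LPS 7 had no counterpart with LPS alone, 6 of 10 at Nfkb1 and 1 of 11 at Tnfaip3, against 12.1% over the genome. The one at Tnfaip3, chr10:18730074-18732811 (2738 bp), lay next to the promoter, and H3K36me2 covered 54.3% of the 2054 bp stretch that lost it with LPS alone. In the like Nfkb1 stretch it covered 53.5%. Of the 19 untreated peaks of at least 1 kb, 3 had no counterpart with flavopiridol, all at Tnfaip3, against 12.6% over the genome. They were chr10:18737690-18745627 (7938 bp), chr10:18704598-18710044 (5447 bp) and chr10:18747039-18750130 (3092 bp). It added 4 of 21, against 28.7%, of which the widest was chr3:135259811-135261545 (1735 bp). LPS after flavopiridol gained 3 of 23 over flavopiridol alone, against 9.92%, all at Tnfaip3 and led by chr10:18736040-18745810 (9771 bp), which covers all of the 7938 bp peak. The flavopiridol lists hold weak peaks. Their highest deposited −log10 q for H3K36me2 was 10.6 with flavopiridol and 8.55 with flavopiridol then LPS, against 22.3 in untreated cells, and no H3K36me2 peak in the windows reached 5 in either. For H3K4me1, 12.8% and 4.02% of the peaks reached 5 against 54.4% in untreated cells. The part of list strength in these differences was not tested.

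The deposited 27-state segmentations changed more at these loci than over the genome. Of the 200 bp steps, 11.0% had another state at 1 h and 12.2% at 4 h over the genome. At Nfkb1 it was 176 of 650 steps (27.1%) and 264 (40.6%), at Nfkbia 48 of 200 (24.0%) and 78 (39.0%), and at Tnfaip3 249 of 500 (49.8%) and 308 (61.6%). The unmarked state 27 took 68.8% of the genome in untreated cells but 6.00 kb at Nfkb1, 10.0 kb at Nfkbia and 7.40 kb at Tnfaip3, so the windows held a smaller share of it. Its part in the shares of changed steps was not tested. At Nfkb1 state 14, in which H3K4me1 and H3K36me3 lie together and H3K27ac takes 52.2% of the length in untreated cells, held 7.80, 12.6 and 22.4 kb over the time course. State 7, with H3K4me1, H3K36me2 and H3K79me2, held 40, 12 and 3 steps. Over the genome state 14 held 8.21, 6.60 and 7.27 Mb. State 7 held 10.5, 6.55 and 5.89 Mb, so it fell over the genome too. The longest run with 1 change at 4 h was chr3:135327201-135329400 (2200 bp), from state 15, H3K36me3 alone, to state 14. At 1 h it was chr3:135298001-135300000, from state 26 to state 15.

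At Tnfaip3 state 3, where H3K27ac, H3K4me1 and H3K36me2 overlap, held 4.80, 12.2 and 16.8 kb. State 1, H3K36me2 over nearly all of its length, held 25.0, 31.2 and 39.2 kb, and state 26, H3K36me2 over 64.5% of it in untreated cells, held 19.2, 13.0 and 3.20 kb. Over the genome state 3 held 7.30, 6.90 and 10.5 Mb. State 1 also lengthened over the genome, with 65.3, 101 and 125 Mb, and state 26 held 145, 122 and 123 Mb. The longest runs at Tnfaip3 went from state 26 to state 1, chr10:18739401-18741600 at 1 h and chr10:18742201-18745600 (3400 bp) at 4 h. At Nfkbia the longest runs lay outside the gene, in flanking chromatin that moved between the H3K27me3 state 19 and the unmarked state 27, chr12:56609601-56613000 at 1 h and chr12:56613001-56616000 at 4 h. The run at 4 h, which went to the unmarked state, lies inside the H3K27me3 peak chr12:56611790-56625615 of the 4 h list, so the segmentation and the peak list differ there. Next to the gene, state 3 held 2.80 kb at 4 h.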

How the data were processed

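Chromatin immunoprecipitation libraries from RAW 264.7 cells were mapped to mm9 using Bowtie 1.0.1, with MACS2 as peak caller, per the submitters' processing notes. For the MACS2 version and settings, the control and the read depth, nothing was given in the sources used here, so no interval for counting error is given. Of 29 samples 26 had a list, and the 3 inputs had none here. The deposited lists give a score, a signal fold enrichment (a ratio) and −log10 p and q values for each peak, all the authors', and the 4 deposited segmentations give state numbers (27 states per LPS group, 18 in another). Broad peaks' fold and q values jumped between lists at the same site, so their intervals were compared and folds were used for PU.1 alone.

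Overlap of 1 bp, covered length and state changes in 200 bp steps were computed with Python 3.11.15 and numpy 2.4.6 on chromosomes 1 to 19 and X, and checked on simulated intervals. Peaks named were drawn from the widest per mark and group and from those of at least 1 kb gained or lost. Not every such peak is named. The 3 strongest PU.1 peaks per window and the longest run of 1 state change were also named. Others were chosen after their values were seen. Members and lists were chosen with earlier results of these data known. A planned list of other NF-kB pathway genes needs mm9 gene positions and was not run. Alternatives were a −log10 q of at least 5, a width of at least 1 kb, peaks merged within 1 kb, 50% coverage, equal numbers of widest peaks, PU.1 summits, a PU.1 fold of at least 10 and segments of at least 400 bp.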

Additional observations from a re-analysis of the deposited data

Results flagged for a closer look

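H3K4me1 covered less of each window at 1 h of LPS than in untreated cells and more at 4 h, and these opposite directions were not tested since each group has 1 library. The changes were −3.17 and 13.3 kb at Nfkb1, −1.27 and 1.50 kb at Nfkbia and −2.92 and 5.75 kb at Tnfaip3. With peaks at a −log10 q of at least 5 both LPS times were lower than untreated cells at Nfkb1 and Nfkbia and higher at Tnfaip3. The genome-wide H3K4me1 length also went down and then up, at 0.918 and 1.04 times the untreated length.

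The change in H3K4me1 with LPS for 4 h had opposite signs without and with flavopiridol at each of the 3 genes, which was not tested. At Nfkb1 it was 13.3 kb without and −1.59 kb with flavopiridol, at Nfkbia 1.50 kb without and −5.75 kb with it, and at Tnfaip3 5.75 kb without and −0.560 kb with it. The genome-wide ratio was 1.04 without and 0.816 with flavopiridol.

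H3K36me2 at Nfkbia covered 5.11 kb more with flavopiridol than without it in cells with no LPS, and −6.26 kb, that is less, in cells with LPS for 4 h. The difference between these was not tested. Over the genome the flavopiridol ratio was 1.08 without LPS and 0.659 with it.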

How the results depend on the processing

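No paired analysis was possible because each group has 1 library, and for the same reason no library could be left out. Over all results and alternatives there were 373 recomputed values, of which 303 stayed within 1.5 times the reported value or the reported share's exact binomial 95% interval, 68 moved past it and 2, both at least 1.5 times up as reported, turned the other way. Taking equal numbers of the widest peaks (60 values) and segments of at least 400 bp (6) moved none past it. Merging peaks within 1 kb (64 values) joined no histone peaks in the windows. It could not move a value, so its 64 among the 303 were no check. The cause of the moves was not tested. With a −log10 q of at least 5, gained peaks at 1 h numbered 13 and lost peaks at 1 h 19. With 50% coverage, 14 peaks were gained at 1 h, 36 were gained at 4 h and 14 were lost at 4 h. With that same q limit, Tnfaip3 had H3K36me2 LPS ratios of 11.3 at 1 h and 11.9 at 4 h. There the flavopiridol ratios of H3K36me2 were 0 at Nfkb1 (with LPS, which turned it the other way), at Nfkbia (with LPS) and at Tnfaip3 (with and without LPS), and the ratio of H3K4me1 at Nfkbia with flavopiridol alone turned to 0. The H3K4me1 and H3K36me3 covered lengths crossed a ratio of 1 in 6 further comparisons at that q limit. They were H3K4me1 at Nfkb1 at 4 h (1.31 to 0.902), at Nfkbia at 4 h (1.12 to 0.300) and with flavopiridol and LPS over LPS (1.16 to 0), and at Tnfaip3 at 1 h (0.937 to 13.5) and with flavopiridol alone (0.730 to 1.12), and H3K36me3 at Nfkb1 at 1 h, reported above 1 and 0.953 there. Other H3K36me2 ratios gave no value there, since the denominator had no peak, and they are not among the 373. The shortening of H3K36me2 at Nfkb1 after LPS is one of these, so the tally does not score it. At that limit H3K36me2 covered 0 kb at Nfkb1 in untreated cells and 10.6 kb at 4 h, which is the opposite direction. At Nfkbia it covered 0 and 7.92 kb. With PU.1 peaks at a fold of at least 10, the share under H3K27ac was 87.5% at 1 h and 100% at 4 h, and that under H3K4me1 was 93.8% at 1 h, 87.5% at 4 h, 100% with flavopiridol and 93.8% with flavopiridol then LPS. With histone peaks at a −log10 q of at least 5, the shares under H3K4me1 were 30.8% untreated, 20.5% at 1 h, 28.2% at 4 h, 12.8% with flavopiridol and 0% with flavopiridol then LPS. The H3K27ac covered lengths stayed on their side and within 1.5 times under each alternative.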

Other observations

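H3K27me3 lay at the edges of the windows and small H3K4me1 peaks came up on it. At Tnfaip3 it covered 9.11, 8.58 and 11.6 kb over the time course, at both ends of the window, and at Nfkb1 8.14, 6.67 and 8.97 kb, on the side of the promoter away from the gene body. A 575 bp H3K4me1 peak gained at 4 h of LPS, chr10:18703189-18703763, was covered by H3K27me3 to 93.9% in untreated cells and 100% at 4 h. A 443 bp peak gained at Nfkbia, chr12:56613438-56613880, was covered to 100% in both, and H3K4me1 covered it fully with flavopiridol as well. A 407 bp peak at chr12:56618517-56618923 had H3K27me3 over 0% of it in untreated cells and 100% at 4 h. Other gained H3K4me1 peaks had little or none of the mark. The 446 bp peak at Tnfaip3, chr10:18792787-18793232, was covered to 20.9% in untreated cells and 24.9% at 4 h. The 3 gained at Nfkb1 had no H3K27me3 over them in any group mapped. The narrow peaks were named after their values were seen.

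The loci also differed in the deposited 18-state segmentation. The labels name it only with untreated samples but its own name gives no condition, and its states were described here by the untreated peak lists. State 12 of that model, which is H3K36me3, took 67.6 kb of the Nfkb1 window (52.0%, against 5.61% of the genome). State 1, H3K36me2, took 36.8 kb of the Tnfaip3 window (36.8%, against 5.39%), and state 2, H3K4me1 with H3K36me2, took 14.0% there against 0.891%. At Nfkbia the unmarked state 18 was the longest, with 19.4 kb (48.5%, against 58.2%).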
